A study of Mus musculus with 6 samples.

Results

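The 10 genes followed here move calcium across the endoplasmic reticulum (ER) and the plasma membrane, and were measured in 3T3-L1 adipocytes, a mouse cell line that is differentiated into fat cells in culture. They were taken by gene symbol from the 24421 symbols of the count tables, and all 10 were found in all 6 libraries. The members were the ER calcium pumps *Atp2a2* and *Atp2a3*, the plasma membrane calcium pumps *Atp2b1* and *Atp2b4*, the inositol trisphosphate (IP3) receptors *Itpr1*, *Itpr2* and *Itpr3*, and the store-operated entry genes *Stim1*, *Stim2* and *Orai1*. The list was drawn up with results of the comparison below already known. The differences of its members between groups are therefore descriptions, given without a p-value.

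Both groups were adipocytes of the same line (strain given as C57BL/6 in the labels), differentiated with 870 nM insulin, 5 µM of the thiazolidinedione TZD, 1 µM dexamethasone and 500 µM IBMX, the last 2 of which were withdrawn on day 3. On day 7 the cells received 100 pfu/cell of an adenovirus carrying *LacZ* (AdLacZ, the control) or codon-optimized mouse *Lmo3* (Ad*Lmo3*), and RNA was taken 3 days later. There were 3 libraries per group, each from its own infection, and the controls carried a virus too, so that no uninfected cells entered the comparison. Counts on genes summed to between 28035639 and 38332335 per library. Native *Lmo3* was at 0 in each of the 6 libraries, which allows a level of up to 0.0768 to 0.111 CPM (3 counts). The labels could thus not be checked through this gene.

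Resting cells keep cytosolic calcium low. The sarco/endoplasmic reticulum calcium ATPases (SERCA) pump it into the ER, and the plasma membrane calcium ATPases (PMCA) pump it out of the cell. Hormones that form IP3 open the IP3 receptors and release the ER store, STIM proteins sense the fall of calcium in the ER lumen, and ORAI1 is the plasma membrane channel that STIM1 opens to refill the store. In adipocytes, calcium in the ER also serves the chaperones that fold secreted proteins such as adiponectin.

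In the fit across all genes, 2 of the 10 members had an adjusted p-value under 0.05, *Atp2a3* (lower in Ad*Lmo3* libraries) and *Atp2b4* (higher). This is 20% of the members, beside 4.28% of the 12766 tested genes (2.71% higher and 1.57% lower). Since the members were chosen on this contrast, nothing is read from the difference between the 2 shares. DESeq2 called 3 members, *Atp2a2* in addition, beside 8.55% of all genes, and edgeR with the replicate number as a block called 2 beside 3.9%. The median log2 fold change was -0.04 over the members and 0.00 over all genes tested. All 10 passed the filter on low counts, with mean levels from the 28.7th (*Orai1*) to the 98.4th percentile (*Atp2a2*) of CPM among tested genes. Levels here are CPM, the counts scaled to a common library size after TMM normalization, which scales libraries by the bulk of their genes, and log2 fold changes with standard errors (SE) come from edgeR. In bulk RNA, fewer cells of a type and less RNA per cell cannot be told apart for any of these levels.

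**Figure D1:**
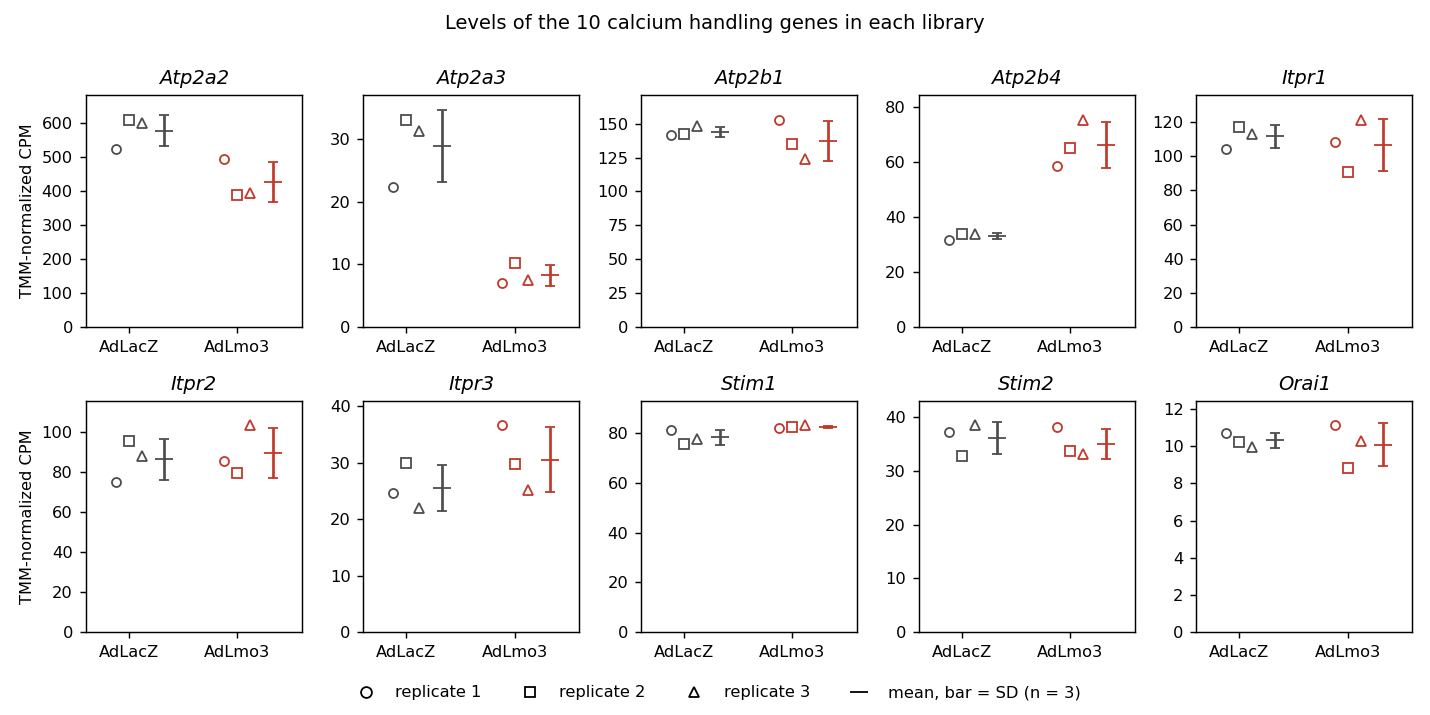
TMM-normalized CPM (linear axes from 0) of each calcium handling gene in the 3 AdLacZ and 3 AdLmo3 libraries; open symbols are single libraries, and the bar beside them is the mean with its SD. The groups of Atp2a2, Atp2a3, Atp2b4 and Stim1 do not overlap, and those of the other 6 genes do.

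The largest difference in the list was that of *Atp2a3*, which encodes SERCA3. Its level was 22.5, 33.1 and 31.4 CPM in AdLacZ replicates 1, 2 and 3, and 7.07, 10.2 and 7.48 CPM in Ad*Lmo3* replicates 1, 2 and 3. Every Ad*Lmo3* library lay below every AdLacZ library. The group means were 29.0 ± 5.72 and 8.25 ± 1.69 CPM (SD, n = 3 each), a 3.51-fold lower level and a log2 fold change of -1.81 (SE 0.187). By absolute size this ranked 18th of the 12766 tested genes. *Atp2a3* was also the member that varied most between replicates, with an SD of 19.7% of the mean in AdLacZ and 20.5% in Ad*Lmo3* libraries. The gene lies on chromosome 11 of GRCm38 from 72961169 to 72993044 on the plus strand, and no exon of another annotated gene overlaps its exons.

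The 250 bases before the annotated start of *Atp2a3* (RefSeq, GRCm38.p6, chr11:72960919-72961168, plus strand) are shown because this gene differed most. Capitals mark the 20 CpG dinucleotides, a number higher than in 82.1% of 32851 RefSeq promoter windows, whose median was 6.
Atp2a3: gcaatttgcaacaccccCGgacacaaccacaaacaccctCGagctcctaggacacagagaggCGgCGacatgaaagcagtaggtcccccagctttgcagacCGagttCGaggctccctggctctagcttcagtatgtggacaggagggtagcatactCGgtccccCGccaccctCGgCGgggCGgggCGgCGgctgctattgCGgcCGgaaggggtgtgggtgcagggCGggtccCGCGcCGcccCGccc
The upstream windows of *Itpr2*, *Itpr3*, *Stim1*, *Stim2* and *Orai1* were likewise rich in CpG, with 22 to 31 per 250 bases. The starts of *Stim1* and *Stim2* lie 13 and 24 bases inside the annotated genes. *Atp2b1* had 2 windows with 43 and 41 CpG, but their starts lie 236 and 746 bases inside the annotated gene. The window given for *Atp2b4* held 2 CpG, but its start lies 47294 bases inside the annotated gene and may not be the start in use in these cells. No window was at hand for *Atp2a2* and *Itpr1*.

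*Atp2a2* encodes SERCA2, the ER calcium pump found in nearly all cells, and was the most abundant member. AdLacZ replicates 1, 2 and 3 had 525, 609.6 and 602 CPM, and Ad*Lmo3* replicates 1, 2 and 3 had 496, 389.5 and 396 CPM. The groups did not overlap, although the gap between AdLacZ replicate 1 and Ad*Lmo3* replicate 1 was small. The means were 579 ± 46.8 and 427 ± 59.3 CPM (SD, n = 3 each), with a log2 fold change of -0.44 (SE 0.111). *Atp2a2* was not called by edgeR, but it was called by DESeq2, with library totals in place of TMM, without the filter on low counts, and without Ad*Lmo3* replicate 1, where the log2 fold change was -0.55. It spans chromosome 5 from 122453513 to 122502225 on the minus strand, and 2.42% of its stretches of read length (75 bp) also occur in other transcripts.

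SERCA2 made up most of the SERCA transcripts per length in both groups. Counted per kb of exon, *Atp2a3* held 4.69%, 5.88% and 5.66% of the 2-gene sum in AdLacZ replicates 1, 2 and 3, and 1.62%, 2.92% and 2.13% in Ad*Lmo3* replicates 1, 2 and 3. The sum itself was 100.7 ± 8.78 CPM per kb in AdLacZ and 71.8 ± 9.55 in Ad*Lmo3* libraries (SD, n = 3 each), or 71.3% of the control level. The muscle pump gene *Atp2a1* was not tested, as it had 2 to 14 counts per library. Phospholamban (*Pln*) and sarcolipin (*Sln*), small inhibitors of SERCA best known from muscle, had no count in any library.

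Of the plasma membrane pumps, *Atp2b4* (PMCA4) was higher and *Atp2b1* (PMCA1, the widely expressed form) was not. *Atp2b4* had 31.7, 33.7 and 33.7 CPM in AdLacZ replicates 1, 2 and 3, and 58.6, 64.9 and 75.1 CPM in Ad*Lmo3* replicates 1, 2 and 3. The 3 control libraries lay close together, and all 3 Ad*Lmo3* libraries were well above them. The means were 33.0 ± 1.16 and 66.2 ± 8.34 CPM (SD, n = 3 each), a 2.00-fold higher level with a log2 fold change of 1.00 (SE 0.0939). *Atp2b4* ranked 186th by absolute size among the tested genes, and lies on chromosome 1 from 133699457 to 133801041 on the minus strand.

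*Atp2b1*, on chromosome 10 from 98914406 to 99026143, had 141, 142 and 148 CPM in AdLacZ and 153, 135 and 124 CPM in Ad*Lmo3* replicates 1, 2 and 3. These groups overlapped, with means of 144 ± 3.51 and 137 ± 14.4 CPM (SD, n = 3 each). On the log2 scale the difference was -0.07 (SE 0.0842), with a 95% interval from -0.26 to 0.12. The share of *Atp2b4* in their sum per kb of exon was 21.8%, 22.7% and 22.1% in the AdLacZ libraries (replicates 1, 2 and 3) against 32.3%, 37.4% and 42.9% in the Ad*Lmo3* libraries. With the length of the longest transcript in place of all exons, the mean shares were 12.2% and 22.8%, since *Atp2b1* has long alternative exons. *Atp2b2* and *Atp2b3*, known mainly from nerve tissue, had at most 8 counts in any library.

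Set against each other, the SERCA sum was 7.62, 8.79 and 8.41 times the PMCA sum per kb in AdLacZ replicates 1, 2 and 3, and 5.59, 4.66 and 4.66 times in Ad*Lmo3* replicates 1, 2 and 3. This ratio was chosen after the values of its members were seen. The groups did not overlap, with means of 8.28 ± 0.597 and 4.97 ± 0.538 (SD, n = 3 each). Its size depends on the length used. In AdLacZ libraries *Atp2b1* had a mean of 9.46 CPM per kb of exon, but 20.2 per kb of its longest transcript.

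**Figure D2:**
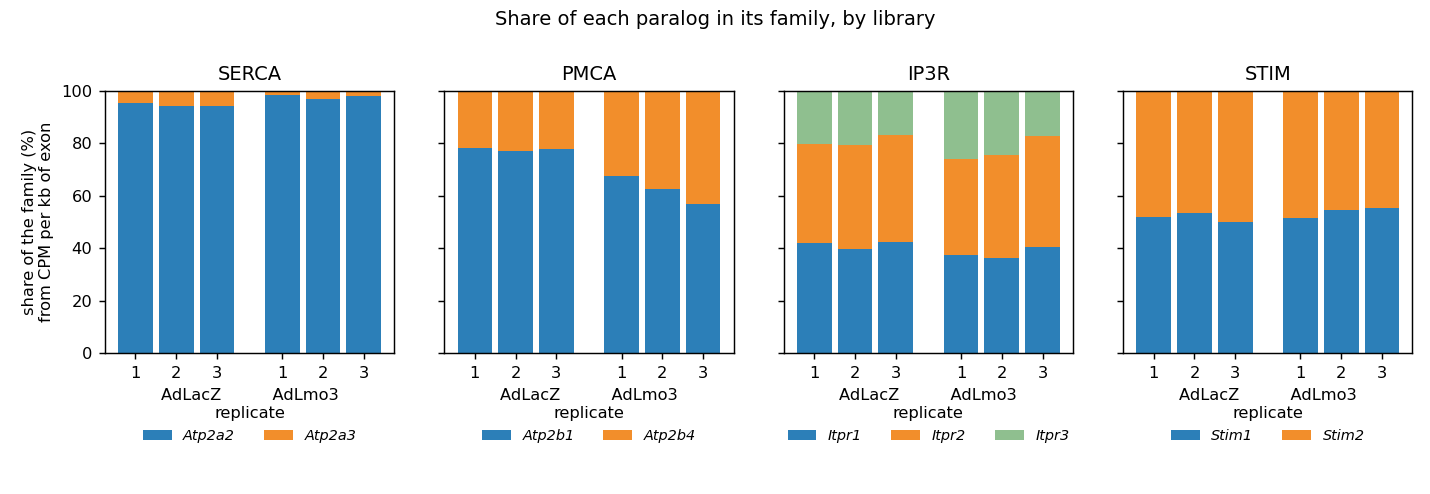
Share of each paralog in its family (%, y axis, from TMM-normalized CPM per kb of exon), 1 bar per library and 1 panel per family. The Atp2b4 part of the PMCA bars is 21.8% to 22.7% in AdLacZ and 32.3% to 42.9% in AdLmo3 libraries, whereas the STIM bars are near even in all libraries. That evenness depends on the length used. Per kb of the longest transcript, the mean share of Stim1 was 71.0% in AdLacZ and 72.8% in AdLmo3 libraries.

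The 3 IP3 receptors, the channels that release calcium from the ER, overlapped between groups. *Itpr1* (chromosome 6, 108213096 to 108551109) had 105, 117 and 113 CPM in AdLacZ and 108, 90.7 and 121 CPM in Ad*Lmo3* replicates 1, 2 and 3. *Itpr2* (chromosome 6, 146108299 to 146502223) had 75.1, 95.5 and 87.7 CPM in AdLacZ and 85.4, 79.1 and 103 CPM in Ad*Lmo3* replicates 1, 2 and 3. For both genes, Ad*Lmo3* replicate 2 was the lower and Ad*Lmo3* replicate 3 the higher extreme of their own group. The log2 fold changes were -0.07 (SE 0.107, 95% interval from -0.31 to 0.18) and 0.05 (SE 0.119, 95% interval from -0.22 to 0.33). The sign of *Itpr1* turned without Ad*Lmo3* replicate 2. That of *Itpr2* turned without AdLacZ replicate 1, without Ad*Lmo3* replicate 3, and with library totals in place of TMM.

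*Itpr3* (chromosome 17, 27057304 to 27122223) was the least abundant receptor, with 24.7, 29.97 and 21.9 CPM in AdLacZ and 36.6, 29.7 and 25.2 CPM in Ad*Lmo3* replicates 1, 2 and 3. The level of Ad*Lmo3* replicate 1 was the highest of all 6 libraries, and the other Ad*Lmo3* libraries fell within the range of the controls. The log2 fold change was 0.26 (SE 0.155, 95% interval from -0.10 to 0.62), and an antisense transcript, *Itpr3os*, shares 0.95% of the stretches of read length. Per kb of exon, *Itpr1* and *Itpr2* each held 36.4% to 42.5% of the receptor sum in every library, and *Itpr3* held 16.7% to 25.8%. The like shares of *Itpr1* and *Itpr2* depend on the length used. With the longest transcript, the mean shares in AdLacZ and Ad*Lmo3* libraries were 52.6% and 49.4% for *Itpr1*, and 34.2% and 34.9% for *Itpr2*. Per kb of exon, the receptor sum was 14.7 ± 1.35 CPM per kb in AdLacZ and 15.2 ± 1.46 in Ad*Lmo3* libraries (SD, n = 3 each).

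Store-operated entry genes stayed near the control level. *Stim1*, the main sensor of ER calcium (chromosome 7, 102267806 to 102437319), had 81.4, 75.7 and 77.8 CPM in AdLacZ and 82.2, 82.3 and 83.2 CPM in Ad*Lmo3* replicates 1, 2 and 3. The groups did not overlap, but the difference was small, at 0.08 on the log2 scale (SE 0.0572, 95% interval from -0.05 to 0.21), and with library totals in place of TMM it was 0.00. *Stim2*, a sensor with a lower threshold for opening entry (chromosome 5, 53998499 to 54121057), had 37.2, 32.8 and 38.4 CPM in AdLacZ and 38.1, 33.6 and 33.2 CPM in Ad*Lmo3* replicates 1, 2 and 3. The libraries of both groups spanned nearly the same range, and the log2 fold change was -0.05 (SE 0.0871, 95% interval from -0.25 to 0.15).

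*Orai1*, the entry channel itself (chromosome 5, 123015074 to 123030456), had the lowest level in CPM among the members in AdLacZ libraries. It had 10.7, 10.2 and 9.97 CPM in AdLacZ and 11.1, 8.85 and 10.3 CPM in Ad*Lmo3* replicates 1, 2 and 3, with a log2 fold change of -0.03 (SE 0.113, 95% interval from -0.29 to 0.23) whose sign also turned with 1 library left out. Groups did not overlap for 4 of the 10 members in all (*Atp2a2*, *Atp2a3*, *Atp2b4* and *Stim1*), beside 26.5% of all tested genes.

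**Figure D3:**
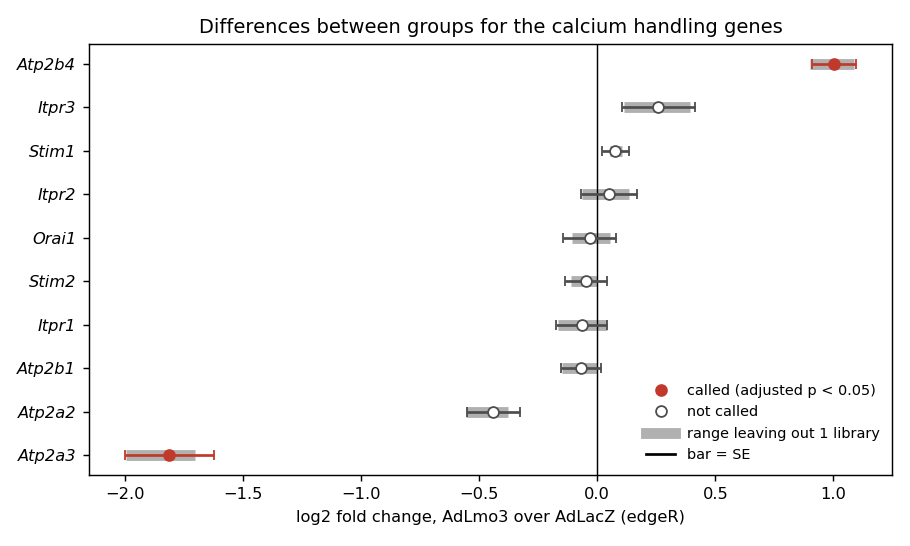
Log2 fold change of each member (x axis, AdLmo3 over AdLacZ, edgeR) with its SE as a bar; grey bands give the range when 1 library at a time is left out. Atp2a3 stays between -1.995 and -1.70 and Atp2b4 between 0.90 and 1.09, whereas the bands of Itpr1, Itpr2 and Orai1 cross 0.

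Levels of different genes were compared per kb of exon and within each group. *Atp2a2* came first with 95.2 ± 7.70 CPM per kb in AdLacZ and 70.2 ± 9.76 in Ad*Lmo3* libraries (SD, n = 3 each). The second, *Atp2b1*, had 9.46 ± 0.231 and 9.02 ± 0.947 CPM per kb, and every library of *Atp2a2* was above every library of *Atp2b1* in both groups. In AdLacZ libraries *Stim1*, *Stim2*, *Itpr1*, *Itpr2*, *Atp2a3* and *Orai1* followed, from 7.55 ± 0.276 down to 4.49 ± 0.170 CPM per kb, and neighbours among these genes overlapped. All control libraries of *Stim1* lay below those of *Atp2b1*, and all of *Orai1* above those of *Itpr3*. *Itpr3* (2.83 ± 0.454) and *Atp2b4* (2.70 ± 0.0948) came last in the controls and overlapped with each other. In Ad*Lmo3* libraries *Atp2b4* stood seventh with 5.40 ± 0.681 CPM per kb, and *Atp2a3* came last with 1.56 ± 0.320, below all libraries of *Itpr3*. Among the 18 pairs of neighbours in the 2 orders, 7 were apart in all libraries, and 11 when the length of the longest transcript was used.

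**Figure D4:**
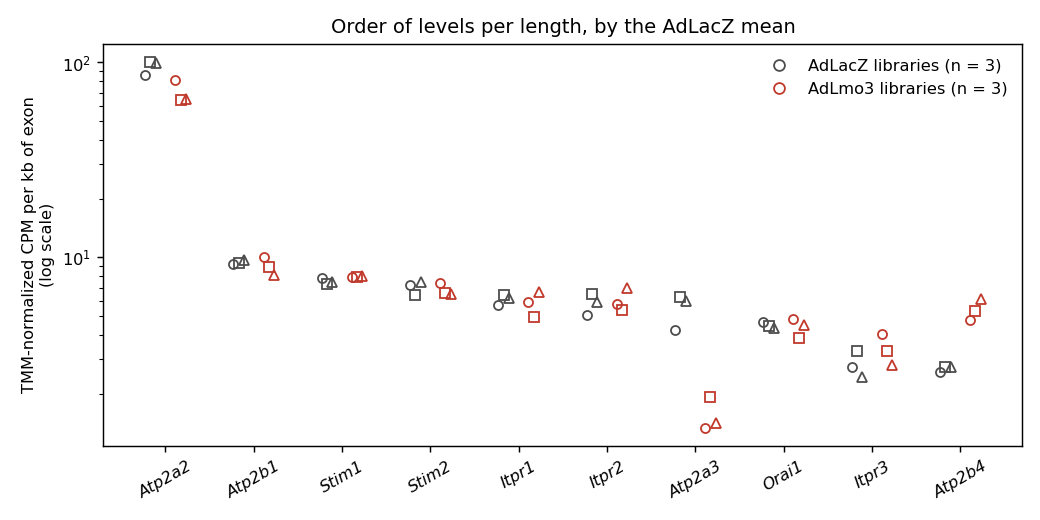
TMM-normalized CPM per kb of exon (log axis) of each member in the AdLacZ (grey) and AdLmo3 (red) libraries, 1 symbol per library, ordered by the AdLacZ mean. Atp2a2 lies about 10 times above the next gene in AdLacZ libraries (95.2 against 9.46), and Atp2a3 and Atp2b4 change places in the lower part of the order. Per kb of the longest transcript the distance was smaller, at 102 against 20.2 in AdLacZ libraries.

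To set the members in their pathway, 134 further calcium genes were listed by function, of which 133 had a symbol in the counts and 92 could be tested. Of these, 5 fell in Ad*Lmo3* libraries and none rose at an adjusted p-value under 0.05 in edgeR. This is 5.43%, beside 4.28% of all tested genes in either direction and 1.57% lower. An unadjusted p under 0.05 was found for 16 of the 92, beside 2635 of all 12766 tested genes, which is a smaller share of the related genes than of all genes. By DESeq2, 8 fell and none rose, beside 8.55% of all genes called in either direction and 433 of 12917 genes called lower. The lists were made with earlier results of these data known, so nothing is read from the differences between these shares. The median log2 fold change over the 92 was -0.04.

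All 5 belonged to the 16 listed calcium-binding proteins of the ER lumen, 14 of which were tested. *Calr* (calreticulin, the main calcium store protein of the lumen) fell by 1.19 on the log2 scale, from a mean of 2762 ± 152 CPM to one of 1212 ± 152 (SD over 3 libraries; SE 0.106, adjusted p = 0.00352, edgeR). *Hsp90b1* (GRP94) fell by 1.09 on the log2 scale (SE 0.110, adjusted p = 0.00352, edgeR), from 2292 ± 260.2 to 1074 ± 96.5 CPM. *Hspa5* (GRP78, the ER HSP70 chaperone) fell by 1.16 (SE 0.172, adjusted p = 0.0123, edgeR), from 4276 ± 682 to 1912 ± 407 CPM.

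*Pdia4*, a protein disulfide isomerase of the lumen, fell by 0.73 on the log2 scale (SE 0.0948, adjusted p = 0.00780, edgeR), and the membrane-bound calnexin (*Canx*) fell by 0.40 (SE 0.0811, adjusted p = 0.0366, edgeR). These 5 genes also act as folding factors, and the fall of ER chaperones in these libraries was known when the list was made. *Canx* was not called with any single library left out. *Hspa5* was not called without AdLacZ replicate 3 or without Ad*Lmo3* replicate 2, nor *Pdia4* without AdLacZ replicate 3, so that 2 of the 14 tested genes were called without that control. The lumen proteins with EF hands did not pass the threshold: *Calu* (log2 fold change -0.12), *Sdf4* (-0.13), *Rcn1* (-0.05), *Rcn2* (0.05), *Rcn3* (0.11), *Nucb1* (-0.05) and *Nucb2* (-0.32) had adjusted p-values from 0.105 to 0.827 in edgeR.

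**Figure D5:**
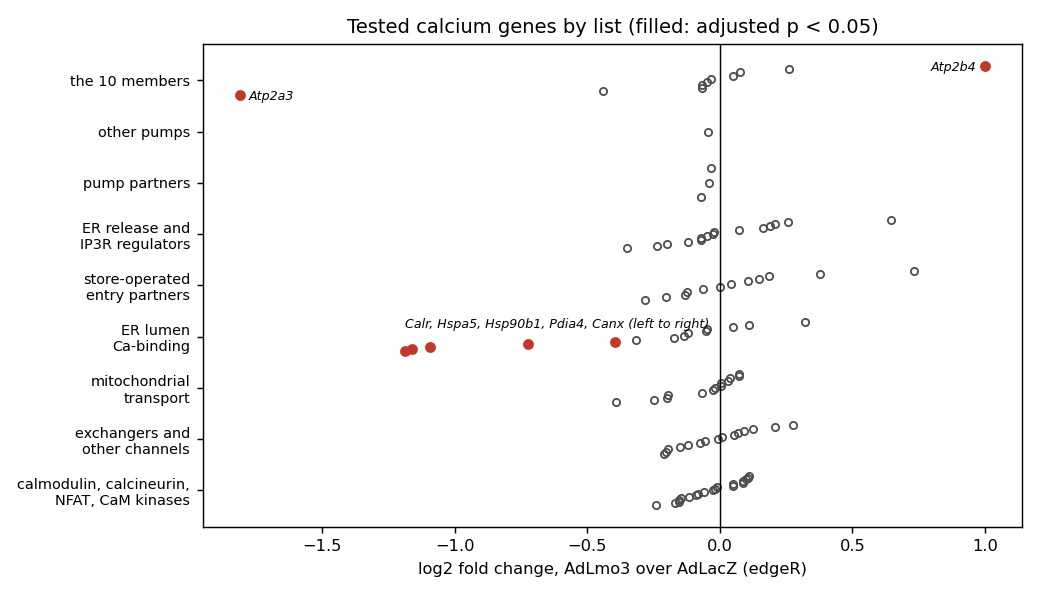
Log2 fold change (x axis, AdLmo3 over AdLacZ, edgeR) of the 10 members and of the 92 tested related calcium genes, 1 point per gene and 1 row per list; filled points had an adjusted p-value under 0.05. The called points are Atp2a3 and Atp2b4 among the members and 5 genes of the ER lumen list.

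In the other 7 lists edgeR called no gene. At an unadjusted p under 0.05 there were 3 of 15 release channels and regulators, 2 of 12 entry partners, 4 of 13 mitochondrial genes and 0 in the other 4 lists, beside the 2635 of 12766 over all genes, and the genes that DESeq2 called included *Tmbim6* and *Mcu*. Among 15 tested ER release channels and regulators of IP3 receptors, the most abundant were *Tmbim6* (log2 fold change -0.35, SE 0.0802, adjusted p = 0.0531, edgeR) and *Grina* (-0.20, SE 0.0681, adjusted p = 0.148, edgeR). The ryanodine receptors, the calcium release channels of muscle, were sparse, with *Ryr1* at 0.250 ± 0.0390 CPM in AdLacZ libraries (SD, n = 3) and at most 2 counts of *Ryr2* and *Ryr3* in any library. The 12 tested store-operated entry partners included *Saraf*, an inhibitor of STIM1 (0.00, adjusted p = 0.992, edgeR), *Esyt1* (0.19, adjusted p = 0.190, edgeR) and *Orai3*, a paralog of *Orai1* with 38.2 ± 2.10 CPM in AdLacZ libraries (0.11, adjusted p = 0.451, edgeR).

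Among 13 mitochondrial calcium transport genes, *Ghitm* and *Vdac1* were the most abundant, with log2 fold changes of -0.20 and 0.04 (adjusted p = 0.164 and 0.842, edgeR). *Mcu*, the pore of the mitochondrial uniporter, lay just outside the threshold at -0.39 (adjusted p = 0.0596, edgeR), and is named here after its value was seen. For the 15 tested exchangers and other plasma membrane channels the log2 fold changes ranged from -0.21 to 0.28, with *Trpm7* at -0.01 and *Piezo1* at 0.21. The 19 tested genes of calmodulin, calcineurin, NFAT and the CaM kinases ranged from -0.24 to 0.11, with the calmodulin gene *Calm2* at -0.17. *Atp2c1*, the Golgi calcium pump, was at -0.04 (adjusted p = 0.736, edgeR), and the pump partners *Bsg* and *Nptn*, which bind PMCA, were at -0.04 and -0.03. *Bsg* varied widely within the groups (2876 ± 1267 CPM in AdLacZ libraries, SD, n = 3), with a 95% interval of its log2 fold change from -0.83 to 0.75.

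The upstream windows (250 bases before to 50 after the start) were searched for the ER stress response element (ERSE), CCAAT and CCACG with 9 bases between, on both strands. It occurred in 0.119% of all windows. None of the 8 members with a window held it, while 4 of the 5 ER lumen genes above did. Of the related genes only the called ones were searched, so that the other ER lumen genes give no comparison. Nothing is read from the difference between the members and the called genes. The matches found are shown with both boxes of the element in capitals.
Hspa5: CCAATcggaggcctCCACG
Canx: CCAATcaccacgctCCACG
Hsp90b1: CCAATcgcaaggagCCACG
Hsp90b1: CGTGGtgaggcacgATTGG
Calr: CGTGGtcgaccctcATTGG
Written on the strand of the gene, they lie at chr2:34772025-34772043 (*Hspa5*, plus strand), chr11:50325800-50325818 (*Canx*, minus), chr10:86705638-86705656 and chr10:86705533-86705551 (*Hsp90b1*, minus) and chr8:84847075-84847093 (*Calr*, minus) of GRCm38.p6. The last 2 of the lines hold the element in the reverse direction. The other motifs searched were ERSE-II (ATTGG and CCACG with 1 base between, 0.0365% of windows), TGACGTGG (0.676%), TGACGTCA (1.79%) and AGGTCA repeated after 1 base (0.0396%), and none occurred in a member's window. The CCAAT box, which 37.4% of windows held and which is part of ERSE, occurred in those of *Itpr2*, *Stim2* and *Orai1*. Such matches describe the letters of the window only, and the window of *Atp2a2* was not searched.

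The genes whose log2 CPM followed *Atp2b4* most closely over the 6 libraries were *Mapk6* (Pearson r = 0.9995), *B3galt2* (0.999) and *Pcx* (0.998). For *Atp2a3* they were *Sf3b2* (0.998), *Ppapdc1b* (0.997) and *Cox6a2* (0.995). These values share the 6 libraries and the difference between the 2 groups, and were the highest among 12766 genes.

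The libraries carried the markers of adipocytes, and these differed between the groups. Of 8 adipocyte markers, 7 rose in Ad*Lmo3* libraries, among them *Adipoq* (log2 fold change 1.05, adjusted p = 0.00724, edgeR) and *Plin1* (0.56, adjusted p = 0.0184, edgeR), and their summed level was 17719.8 to 20019.7 CPM in AdLacZ and 23782 to 28534 CPM in Ad*Lmo3* libraries. The 8 markers of preadipocytes and fibroblasts summed to 15503 to 19974 CPM and 15360.3 to 22981 CPM, with none called by edgeR. Macrophage markers summed to at most 5.86 CPM in any library and endothelial markers to at most 2.38 CPM, with *Ptprc*, *Adgre1* and *Itgam* at or under 3 counts throughout. In the muscle list *Myod1*, *Myog* and *Ckm* were at or under 3 counts throughout, and *Myh11* rose from 9.14 ± 1.80 to 20.5 ± 4.46 CPM (SD, n = 3 each; adjusted p = 0.0169, edgeR). *Acta1* went the other way without being called, from 8.76 ± 2.24 to 4.34 ± 2.92 CPM (SD, n = 3 each; adjusted p = 0.240, edgeR). *Des*, the most abundant of this list, had a log2 fold change of 0.02 (adjusted p = 0.913, edgeR). The muscle list summed to 65.3 to 77.7 CPM in AdLacZ and 76.9 to 81.2 CPM in Ad*Lmo3* libraries. The part of these markers in the levels of the calcium genes was not tested.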

How the data were processed

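Reads of 75 bp (single-end, NEBNext Ultra II) were mapped by the authors with STAR 2.5.0b to mm10, per the submitters' processing notes, and deposited as raw counts per gene symbol, 1 library at a time. The counting program, annotation and strand setting are not given in the sources used here. The last 2 rows of each table, reads on no gene (7.15% to 8.94%) or on several (0.476% to 0.543%), were left out.

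Differences between groups were fitted by edgeR 4.0.16 in R 4.3.3 (quasi-likelihood test after filterByExpr and TMM, without a block), with Benjamini-Hochberg adjustment over 12766 genes and a threshold of 0.05. The SE is the log2 fold change over the square root of F. DESeq2 1.42.0, of which the authors used version 1.6.3, other scaling and filters, the replicate block and leaving out single libraries were alternatives. Scripts were tested on simulated counts. Positions and lengths came from GENCODE (GRCm38), and promoter windows from RefSeq (GRCm38.p6). Limits of 3 counts cover counting error only. Replicates of a group differed beyond sampling noise (chi-square per degree of freedom from 22.9 to 61.6), so each counted as 1.

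The members and lists were chosen with earlier results of these data known. Named were all members, called genes of the related lists, the 2 most abundant genes of lists without a call, and the 3 genes most correlated with the members at either end, besides *Lmo3* and markers; others are examples chosen after their values were seen, and some genes are not reported here.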

Additional observations from a re-analysis of the deposited data

How the results depend on the processing

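*Atp2a3* and *Atp2b4* were called in all 13 fits run, and *Atp2a2* in 4. The number of genes called was 547 (346 higher, 201 lower) in edgeR and 1104 (671 higher, 433 lower) by DESeq2, and ranged from 77 (without AdLacZ replicate 3) to 501 with 1 library left out. With library totals in place of TMM the split was 266 higher and 501 lower. Between 2 and 3 members were called with 1 library left out. Of the related genes, 5 were called in edgeR, 8 by DESeq2, 10 with library totals, and 2 to 4 with 1 library left out. In the order of levels, 7 pairs of neighbours were apart, and 11 with the longest transcript. Same-numbered libraries of the 2 groups deviated together by 0.0508, 0.225 and 0.234 (correlation across genes). Libraries with different numbers ranged from -0.314 to 0.175, and AdLacZ replicates 2 and 3 each correlated best with their own number. These values do not settle whether the numbers mark pairs, so the block was kept as an alternative. With the replicate block, 498 genes, the same 2 members and 4 related genes were called, without *Canx*, and no other call among the members and related genes was lost. Between groups, AdLacZ replicate 1 correlated best with Ad*Lmo3* replicate 3 (0.122). No result changed direction past the threshold. The signs of *Itpr1*, *Itpr2* and *Orai1*, never called, turned in 1, 3 and 1 of the alternatives. The lowest counts among the members were those of *Atp2a3* (202 to 1293 counts) and *Orai1* (278 to 412 counts). *Atp2a3* also varied between replicates, with an SD of 19.7% of the mean in AdLacZ and 20.5% in Ad*Lmo3* libraries. The cause of the changes between settings was not tested.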
